A study of Mus musculus with 20 samples.

Results

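Of 8 marker genes of cortical pyramidal neurons, Rasgrf2 and Itpka were lower in knock-in than wild-type forebrain at 4 weeks and over both ages. Neurod2 was higher in both tests, but each of its calls was lost when single arrays were left out. At 11 weeks Rasgrf2 alone passed, as lower, and that call was lost without any 1 of its arrays. The other measured genes did not pass. Of all probe sets 7.37% were called at 4 weeks, 0.864% at 11 weeks and 13.5% over both ages. The set was defined by name as every probe set annotated to Neurod2, Neurod6, Bcl11b, Tbr1, Itpka, Rasgrf2, Nrgn or Slc17a7. The annotation used gave 7 of the 8 genes 1 probe set each, 7 of the 22626 on the array, and all 7 passed the filter on low values, which kept 15627. Slc17a7, the vesicular glutamate transporter, was matched to no probe set and was not analysed here. Rasgrf2 passed that filter through the 5 wild-type forebrain arrays alone, and Tbr1, Bcl11b and Neurod6 through the 10 forebrain arrays alone.

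Total RNA of mouse brain was hybridised to 20 single-channel oligonucleotide arrays with Affymetrix probe set names. The groups were knock-in and wild-type mice, each in forebrain and in cerebellum, each with 3 arrays at 4 weeks and 2 arrays at 11 weeks, 8 groups in all. The labels name neither the knocked-in allele nor the strain, and nothing in them says that arrays came from separate animals, so p-values measure the spread between these arrays, which may be technical. The later age is 11 weeks in the descriptions and 12 weeks in the titles.

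The labels disagree on region for 7 of the 10 forebrain arrays. There the source field and the opening of the title name cerebellum, while the short code in the title is that of forebrain. At 4 weeks this conflict follows genotype, since it is on every knock-in and no wild-type forebrain array. At 11 weeks it is on every forebrain array. On 1 of the 7, replicate 3 of the 4-week knock-in forebrain, cerebellum also stands in the description. Arrays were grouped by the code. Gabra6, the GABA-A receptor subunit of cerebellar granule cells, read 18.9 to 364 on the 10 forebrain arrays and 35953 to 46884 on the 10 cerebellum arrays, so the groups did not overlap. Without the array whose description disagrees, the 4-week differences were -2.13 for Rasgrf2, -0.88 for Itpka and 0.75 for Neurod2 on the log2 scale (limma, adjusted p = 0.00897, 0.0256 and 0.0383), and 3 members passed, as with it. Array medians were 979 to 1180 intensity units. The intensity at the lower quartile was 345 to 363 in knock-in forebrain at 4 weeks, against 264 to 321 in wild-type forebrain, and did not overlap. The GAPDH 3'/5' ratio, a sign of RNA quality, was 0.827 to 0.890 in knock-in forebrain, against 0.744 to 0.828 in wild-type forebrain at 4 weeks. At 11 weeks the lower quartile was 317.1 to 334 in knock-in and 278 to 317.0 in wild-type forebrain, the GAPDH ratio overlapped, and the actin 3'/5' ratio was 0.934 to 1.06 against 1.09 to 1.15, without overlap. The part of these in the differences was not tested.

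Pyramidal neurons are the excitatory projection cells of the cerebral cortex and hippocampus. Their identity is set during development by transcription factors that include the T-box factor Tbr1, the zinc-finger factor Bcl11b and the basic helix-loop-helix factors Neurod2 and Neurod6. In the adult their dendritic spines hold much of the signalling machinery of the synapse. Itpka phosphorylates inositol trisphosphate and binds actin in spines, Rasgrf2 couples calcium and calmodulin to Ras and Rac, and Nrgn (neurogranin) binds calmodulin at low calcium. Several of these genes are not specific to cortex. Bcl11b also marks striatal projection neurons, and Neurod2 is expressed in cerebellar granule neurons.

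The RefSeq sequence of the 250 bases before the annotated start is shown for the 3 members that passed in forebrain, because 2 of them moved together and the other the opposite way. Capitals mark CANNTG, the E-box that basic helix-loop-helix factors such as the Neurod proteins bind, which reads the same on both strands. Each is given 5′ to 3′ on the strand of the gene in GRCm38.p6. Rasgrf2 is at chr13:92131829-92132078 on the minus strand.
Rasgrf2: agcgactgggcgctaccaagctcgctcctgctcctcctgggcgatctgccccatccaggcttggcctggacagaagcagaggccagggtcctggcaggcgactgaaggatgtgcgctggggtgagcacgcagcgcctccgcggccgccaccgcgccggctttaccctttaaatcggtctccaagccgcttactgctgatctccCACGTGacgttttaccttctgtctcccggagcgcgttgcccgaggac
Itpka is at chr2:119742087-119742336 on the plus strand.
Itpka: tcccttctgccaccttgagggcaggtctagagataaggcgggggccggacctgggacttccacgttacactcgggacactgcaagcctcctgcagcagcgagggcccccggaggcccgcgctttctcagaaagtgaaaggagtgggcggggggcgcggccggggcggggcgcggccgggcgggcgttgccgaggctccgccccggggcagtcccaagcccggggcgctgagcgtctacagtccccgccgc
Neurod2 is at chr11:98329646-98329895 on the minus strand.
Neurod2: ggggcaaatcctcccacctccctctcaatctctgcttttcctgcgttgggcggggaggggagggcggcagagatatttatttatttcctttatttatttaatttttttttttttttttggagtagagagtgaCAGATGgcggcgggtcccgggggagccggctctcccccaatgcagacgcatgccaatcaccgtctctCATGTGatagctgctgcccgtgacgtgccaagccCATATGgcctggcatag
Rasgrf2 had 1 CANNTG, Itpka had 0 and Neurod2 had 3, and 66.2% of 32851 promoter windows of this length held at least 1. GGGCGG, the GC box, was searched on both strands and was present 0 times for Rasgrf2, 4 times for Itpka and 2 times for Neurod2, and in 32.7% of windows. The 2 motifs do not overlap each other in these windows. GC content was 65.2% for Rasgrf2, 72.8% for Itpka and 52.8% for Neurod2, with a median of 52.4% over all windows. The 2 genes that were lower in knock-in forebrain thus shared neither motif.

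In wild-type mice 6 of the 7 genes were higher in forebrain than in cerebellum and 1, Neurod2, was lower. In this comparison 47.9% of all probe sets were called, 21.3% higher and 26.6% lower in forebrain. Bcl11b read 4287 to 6182 on the 5 wild-type forebrain arrays and 13.8 to 29.8 on the 5 wild-type cerebellum arrays, at least 7.97-fold higher in forebrain. This fold is a lower bound, because Bcl11b lay below the filter limit on every cerebellum array and the dim values were raised to that limit (the array's 40th percentile, 606 to 775). The same bounds were 2.68-fold for Neurod6, 2.28-fold for Tbr1 and 2.12-fold for Rasgrf2. Nrgn read 41719 to 72135 in wild-type forebrain, against 684 to 1483 in wild-type cerebellum, a log2 difference of 5.55 ± 0.27 (SE; limma, adjusted p = 1.01e-10). Itpka, which is abundant in both regions, differed by 1.43 ± 0.14 (adjusted p = 4.51e-07). Neurod2 read 4004 to 7058 in wild-type forebrain and 6645 to 7697 in wild-type cerebellum, and its difference of -0.44 ± 0.13 (adjusted p = 0.0122) lost its call without wild-type forebrain 11 weeks replicate 1 (-0.38, adjusted p = 0.0584). The Neurod2 values thus overlapped between the regions, while those of Itpka and Nrgn, above the limit on every array, did not. Neurod6, Bcl11b, Tbr1 and Rasgrf2 passed the filter through forebrain arrays alone, so their direction was fixed in advance. The genes were also chosen as cortical, so the count of 6 lends that label no support.

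**Figure D1:**
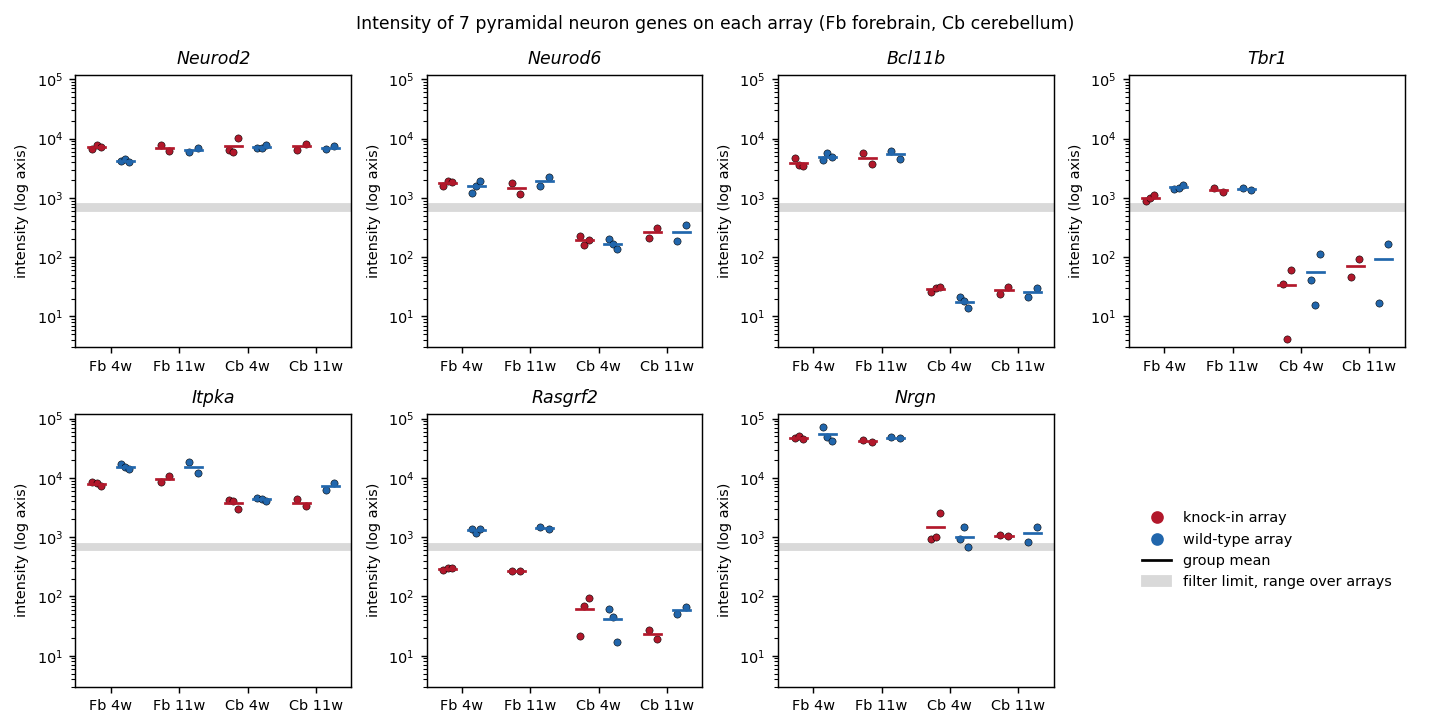
Intensity of each gene's probe set on each array (log axis), with knock-in arrays left of wild-type arrays within each region and age and bars at group means. The grey band is the range over arrays of the filter limit, 606 to 775; Rasgrf2 lay below it on all knock-in forebrain arrays, at 268 to 305, and above it on all wild-type forebrain arrays, at 1179 to 1475.

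Rasgrf2, the calcium-dependent exchange factor for Ras, was reduced in knock-in forebrain at each age, and all its knock-in values lay under the filter limit. Its intensity was 274, 297 and 305 on the knock-in arrays at 4 weeks, against 1378, 1179 and 1355 on the wild-type arrays. At 11 weeks it was 268 and 271 on the knock-in arrays, against 1475 and 1381 on the wild-type arrays. No knock-in array came near a wild-type array, and the knock-in values varied little among themselves. In whole tissue, fewer cells of a type and less RNA per cell cannot be told apart. The log2 difference was -2.10 ± 0.32 at 4 weeks (SE; limma, adjusted p = 0.00368) and -2.34 ± 0.39 at 11 weeks (adjusted p = 0.0124). All knock-in values lay below the filter limit, so the size of the difference depends on the added offset and the fall can be given only as at least 1.75-fold at 4 weeks and at least 2.03-fold at 11 weeks.

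Over both ages the fitted difference of Rasgrf2, which rests on values below the limit and has no measured size, was -2.22 ± 0.25 (adjusted p = 0.000199). An exact two-sided permutation of genotype within age gave p = 0.0167, the smallest that its 120 arrangements allow, with all 5 knock-in arrays lower. Rasgrf2 passed the filter through the 5 wild-type forebrain arrays alone, so the direction of its forebrain genotype difference was fixed in advance. Its p-values after that filter, at each age and over both, are thus no independent support for a fall. With no filter the adjusted p was 0.00936 at 4 weeks and 0.000728 over both ages (limma). At 11 weeks the call was lost without any 1 of the 4 arrays. The adjusted p was then 0.0570 without knock-in replicate 1, 0.102 without knock-in replicate 2, 0.0803 without wild-type replicate 1 and 0.0576 without wild-type replicate 2, with the difference at -2.39 to -2.29. By group mean wild-type forebrain at 11 weeks and at 4 weeks came highest and overlapped each other. The other 6 groups, knock-in forebrain and all of cerebellum, lay below the limit, and no order is given among them.

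Itpka, the spine kinase, was also lower in knock-in forebrain. At 4 weeks it read 8380, 8308 and 7206 on the knock-in arrays, against 17235, 15096 and 13877 on the wild-type arrays. The 11-week values were 8537 and 10621 on the knock-in arrays, against 18250 and 12189 on the wild-type arrays. The groups did not overlap at either age, though the wild-type arrays at 11 weeks lay far apart. The difference was -0.95 ± 0.18 at 4 weeks, 1.93-fold lower (SE; limma, adjusted p = 0.00828), and -0.65 ± 0.22 at 11 weeks (adjusted p = 0.171), which did not pass. Over both ages it was -0.80 ± 0.14, 1.74-fold lower (adjusted p = 0.00357; exact permutation p = 0.0167), and it kept its call without any 1 of the 10 forebrain arrays. Its groups ranked with both wild-type forebrain groups highest, overlapping each other, then both knock-in forebrain groups, then cerebellum. The knock-in forebrain values, 7206 to 10621, overlapped those of wild-type cerebellum at 11 weeks, 6341 and 8204.

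At 4 weeks 2 of the 7 genes were thus lower and 1 higher in knock-in forebrain, where 7.37% of the 15627 probe sets were called (2.42% lower, 4.95% higher). At 11 weeks 1 of the 7 was lower and 0 were higher, with 0.864% called (0.48% lower, 0.384% higher). In the mean over ages 2 were lower and 1 higher, with 13.5% called (5.13% lower, 8.36% higher). Groups without overlap were counted as well. At 4 weeks 3 of the 7 lay lower and 1 higher, where 11.5% of all probe sets lay lower and 17.2% higher, and at 11 weeks 3 lay lower and 0 higher, where 21.1% lay lower and 26.9% higher. The share of higher calls among all calls at 4 weeks depended on scaling. It was 67.2% with the deposited scaling, 52.0% after quantile normalization, 42.7% after cyclic loess over all arrays and 49.5% after cyclic loess of the forebrain arrays alone. In the same order it was 44.4%, 32.0%, 27.9% and 18.5% at 11 weeks and 62.0%, 49.1%, 38.9% and 41.7% in the mean over ages. Rasgrf2, Itpka and Neurod2 passed with the same direction at 4 weeks under each of these.

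**Figure D2:**
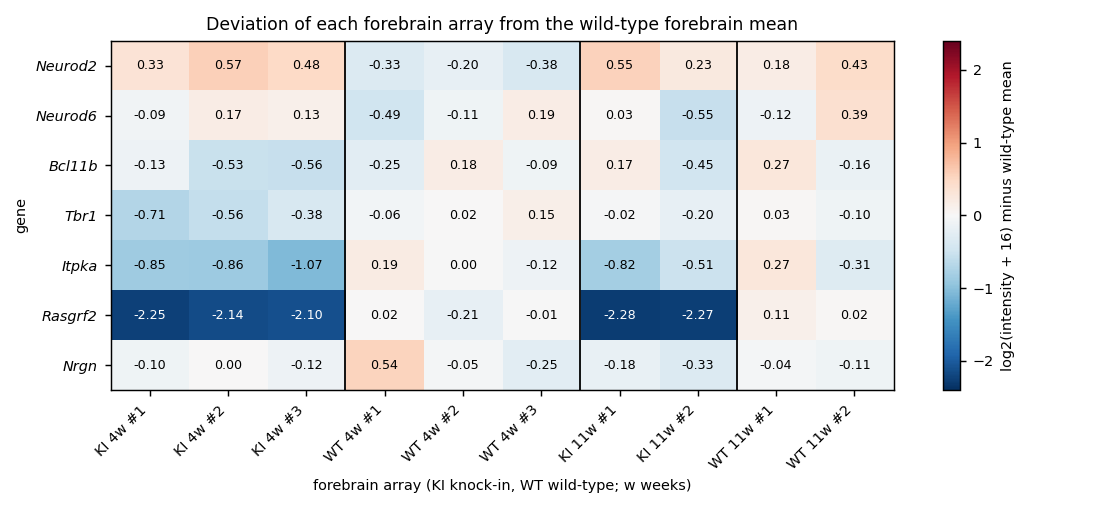
Deviation of each forebrain array from the mean of the 5 wild-type forebrain arrays, in log2(intensity + 16), for each gene (rows), with knock-in (KI) arrays left of wild-type (WT) arrays at each age. Rasgrf2, whose knock-in values were all under the limit, lay at -2.28 to -2.10 on the knock-in arrays, and Neurod2 at 0.23 to 0.57. Neurod6, Bcl11b, Tbr1 and Nrgn lay between -0.71 and 0.17 on the same arrays. These are the genes that did not pass in the main model, so their contrast with Rasgrf2 follows from that choice.

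Neurod2, the helix-loop-helix factor of young and mature cortical neurons, was higher in knock-in forebrain at 4 weeks. It read 6557, 7764 and 7316 on the knock-in arrays, against 4146, 4541 and 4004 on the wild-type arrays. At the later age it read 7661 and 6119 on the knock-in arrays, against 5940 and 7058 on the wild-type arrays. The groups were apart at 4 weeks and overlapped at 11 weeks. The difference was 0.77 ± 0.17 at 4 weeks, 1.70-fold higher (SE; limma, adjusted p = 0.0163), and 0.08 ± 0.21 at 11 weeks (adjusted p = 0.892). Knock-in replicate 2 decided the 4-week call, which did not hold with that array left out (0.71, adjusted p = 0.0612).

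The 4-week wild-type forebrain arrays had the lowest Neurod2 of all 8 groups. Their highest value, 4541, lay below the lowest value of the other 7 groups, 5940, and among those 7 the ranges overlapped. The difference between 11 and 4 weeks in wild-type forebrain was 0.61 ± 0.19 (adjusted p = 0.621), and the difference of the genotype effect between the ages was -0.69 ± 0.27 (adjusted p = 0.773). Neither passed. In wild-type forebrain 0 of the 7 genes passed between ages, with 0.0064% of all probe sets called, all of them lower at 11 weeks. In wild-type cerebellum it was also 0, with 0.198% called (0.154% lower, 0.0448% higher). In these limma tests 1 gene each, Neurod2 in forebrain and Itpka in cerebellum, had an unadjusted p under 0.05. Of all 15627 probe sets 961 had such a p in wild-type forebrain and 1455 in wild-type cerebellum. In limma 0 of 15627 probe sets passed for the difference between ages, 0% of those tested, and 971 had an unadjusted p under 0.05. For the mean over ages Neurod2 was at 0.42 ± 0.13 (adjusted p = 0.0471, exact permutation p = 0.0333), and this call was lost without any 1 of the 10 forebrain arrays (adjusted p 0.0558 to 0.170), with no filter (0.0762) and after quantile normalization (0.0545).

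Neurod6, a close relative of Neurod2 that is expressed in most cortical projection neurons, did not pass at either age. At 4 weeks it read 1614, 1943 and 1883 on the knock-in arrays, against 1224, 1593 and 1960 on the wild-type arrays. At 11 weeks it read 1753 and 1172 on the knock-in arrays, against 1585 and 2261 on the wild-type arrays. The groups overlapped at both ages. The differences were 0.21 ± 0.25 (adjusted p = 0.634) and -0.40 ± 0.30 (adjusted p = 0.560), with 95% intervals of -0.31 to 0.73 and -1.04 to 0.24. The sign at 4 weeks turned to -0.09 after cyclic loess over all arrays.

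Tbr1, which specifies deep-layer corticothalamic neurons, separated the genotypes at 4 weeks but not at 11 weeks. It read 893, 986 and 1121 on the 4-week knock-in arrays, against 1408, 1481 and 1627 on the wild-type arrays. The 11-week arrays gave 1445 and 1274 on the knock-in arrays, against 1494 and 1368 on the wild-type arrays. All 3 knock-in arrays at 4 weeks were lower than all wild-type arrays, and the groups overlapped at 11 weeks. The model over all arrays gave -0.59 ± 0.58 at 4 weeks (adjusted p = 0.553), with an SE that holds the wide log2 spread of cerebellum values of 4.21 to 166. With the forebrain arrays fitted alone, an alternative chosen after seeing the data, the same difference had an adjusted p of 0.0409, and after cyclic loess of those arrays it was -0.69 (adjusted p = 0.0351). The 4-week lack of overlap is one that 28.7% of all probe sets showed in 1 direction or the other. Over both ages the difference was -0.33 ± 0.45 (adjusted p = 0.662; exact permutation p = 0.0333). At 11 weeks it was -0.07 ± 0.70.

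Bcl11b, the deep-layer and striatal zinc-finger factor, overlapped between genotypes at both ages. It read 4684, 3542 and 3472 on the 4-week knock-in arrays, against 4287, 5794 and 4792 on the wild-type arrays. At the later age it read 5768 and 3734 on the knock-in arrays, against 6182 and 4581 on the wild-type arrays. The differences were -0.35 ± 0.18 (limma, adjusted p = 0.242) and -0.20 ± 0.22 (adjusted p = 0.719). The mean over ages, -0.27 ± 0.14, did not pass (adjusted p = 0.214, exact permutation p = 0.200). It was -0.55 (adjusted p = 0.0452) after cyclic loess over all arrays and -0.26 (adjusted p = 0.344) after cyclic loess of the forebrain arrays alone.

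Nrgn, the calmodulin-binding spine protein, had the highest intensities of the set. It read 46468, 49794 and 45807 on the 4-week knock-in arrays, against 72135, 48049 and 41719 on the wild-type arrays. Its 11-week values were 43805 and 39495 on the knock-in arrays, against 48261 and 46079 on the wild-type arrays. The genotypes overlapped at 4 weeks, where 1 wild-type array stood high, and did not overlap at 11 weeks. In that comparison 47.9% of all probe sets did not overlap in 1 direction or the other. The differences were -0.15 ± 0.34 and -0.18 ± 0.42, and the mean over ages was -0.17 ± 0.27, with a 95% interval of -0.74 to 0.41 (adjusted p = 0.718; exact permutation p = 0.233).

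On each knock-in forebrain array the median deviation of Neurod6, Bcl11b, Tbr1 and Nrgn from the wild-type forebrain mean was between -0.39 and 0.00. On the wild-type arrays it was between -0.16 and 0.03. On the same knock-in arrays Itpka lay at -1.07 to -0.51, Rasgrf2 at -2.28 to -2.10 and Neurod2 at 0.23 to 0.57. Neurod6, Bcl11b, Tbr1 and Nrgn were grouped because they did not pass on these arrays in the main model. Their contrast with the called genes follows from that choice and is given as a description. The Rasgrf2 deviations rest on values below the limit and are not measured sizes. Over the 10 forebrain arrays Itpka and Rasgrf2 had a Pearson r of 0.90, and 0.21 after each group's mean was removed. These arrays share genotype groups, and r is given as a description.

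**Figure D3:**
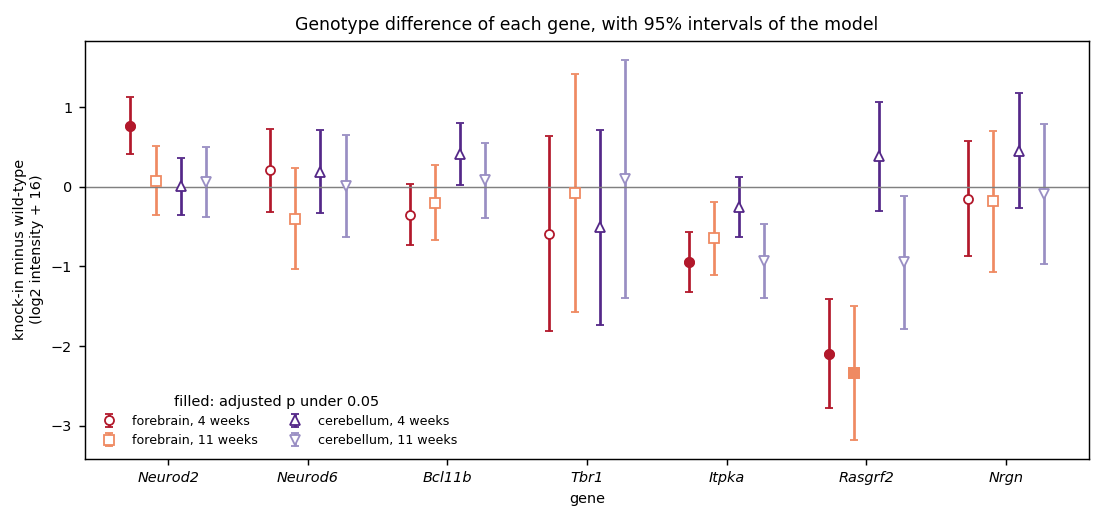
Knock-in minus wild-type difference of each gene in log2(intensity + 16), with 95% intervals of the model, in forebrain at 4 and 11 weeks and in cerebellum at 4 and 11 weeks; filled symbols passed at an adjusted p under 0.05. Rasgrf2 in forebrain was at -2.10 and -2.34, sizes that rest on knock-in values below the filter limit, and the wide intervals of Tbr1 hold the spread of its dim cerebellum values.

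A wider list of 44 other pyramidal neuron genes had 30 measured members, each given by its probe set of highest mean. In the mean over ages 4 of 30 were lower in knock-in forebrain and 1 was higher. With the forebrain arrays fitted alone the counts were 4 lower and 2 higher, but not all of the same genes. The median difference was -0.19, against 0.05 over the 9105 genes tested, of which 4.81% were lower and 9.46% higher. At 4 weeks 2 were lower and 1 higher (median -0.12), where 2.21% of all genes were lower and 5.54% higher. At 11 weeks 1 was lower and 1 higher (median -0.18), where 0.483% were lower and 0.472% higher. With the forebrain arrays alone only Tle4 of these kept its call at 4 weeks (limma, adjusted p = 0.0485), and at 11 weeks neither Plxnd1 (0.0903) nor Slc30a3 (0.163) did. In wild-type mice 26 of the 30 were higher in forebrain than in cerebellum, where 22.7% of all genes were, and 4 were lower (Neurod1, Nptx1, Zbtb18 and Cux1), where 27% were. These genes were chosen as cortical, so the count of 26 lends that label no support. Without knock-in forebrain 4 weeks replicate 3 the counts were 4 lower and 1 higher in the mean over ages, and 0 lower and 1 higher at 4 weeks.

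Plxnd1, a semaphorin receptor, had the most negative difference of the list (-0.80 ± 0.14, adjusted p = 0.00362). At 4 weeks it averaged 3275 ± 419 on the knock-in arrays, against 4746 ± 414 on the wild-type forebrain arrays (SD, n = 3 each), and 2179 ± 440 against 4562 ± 999 at 11 weeks (n = 2 each). Tle4, a corepressor of deep-layer neurons, was at -0.73 ± 0.17 (adjusted p = 0.0151). A further probe set of Tle4 was at 0.10 and did not pass, so its probe sets differed. Arpp21, a calmodulin-regulating phosphoprotein, was at -0.29 ± 0.09 (adjusted p = 0.0388), with other probe sets at -0.60 (adjusted p = 0.0223) and 0.24 (adjusted p = 0.484). Ppp3ca, the catalytic subunit of calcineurin, was at -0.26 ± 0.07 (adjusted p = 0.0237), with others at -0.33 (adjusted p = 0.0247) and -0.11 (adjusted p = 0.502).

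Slc30a3, the vesicular zinc transporter of cortical glutamatergic terminals, was higher. Its 4-week mean was 15924 ± 2402 on the knock-in arrays, against 9239 ± 727 on the wild-type arrays (SD, n = 3 each), and 12186 ± 893 against 6644 ± 2425 at 11 weeks (n = 2 each). Its mean difference was 0.85 ± 0.13 (adjusted p = 0.00137). Called genes of the list thus lay in both directions, as did those of the 7. Passing or not, 24 of the 30 and 6 of the 7 lay below 0 in the mean over ages. Of all 9105 genes 3784 did. Fezf2, the selector of subcerebral neurons, was at -0.77 ± 0.26 (adjusted p = 0.0587), Rorb, a layer 4 receptor, at -0.35 ± 0.12 (adjusted p = 0.0721) and Rprm at 0.44 ± 0.16 (adjusted p = 0.0848). With the forebrain arrays fitted alone Fezf2 passed as lower (adjusted p = 0.0167) and Rprm as higher (0.0315), while Ppp3ca (0.0870) and Arpp21 (0.102) did not pass. Arpp21 also did not pass after quantile normalization (0.0749) or cyclic loess over all arrays (0.0513).

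**Figure D4:**
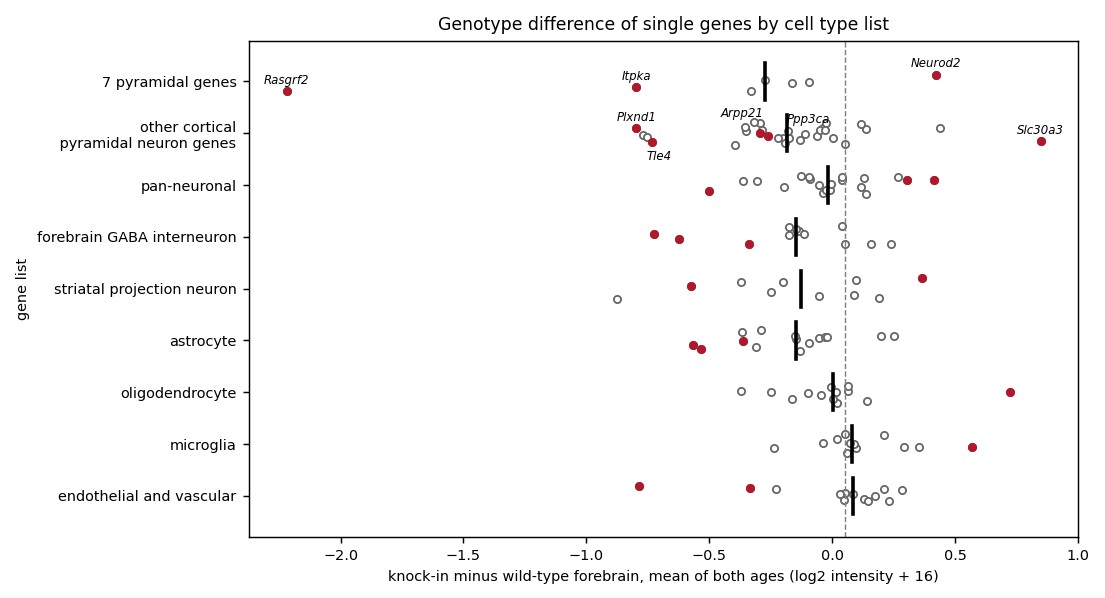
Knock-in minus wild-type forebrain difference, mean of both ages in log2(intensity + 16), of each measured gene by cell type list; red points passed, black bars are list medians and the dashed line is the median of all 9105 genes, 0.05. The point of Rasgrf2 at -2.22 rests on knock-in values below the filter limit and is no measured size, and the list medians lay between -0.27 and 0.08.

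Summed intensity over the 30 listed genes, which bright probe sets weigh most and which was not tested, was 299081 to 306932 on the knock-in arrays at 4 weeks, against 326739 to 337463 on the wild-type arrays, and 291235 to 295467 against 329717 to 335974 at 11 weeks. The sums did not overlap at either age, while 25 of the 30 genes did not pass singly and 1 was higher. Of all single probe sets 28.7% did not overlap at 4 weeks and 47.9% at 11 weeks. A single probe set is not a like measure to a sum over 30 genes, and no such share is given for sums. The sum over the 7 measured members, in which Nrgn weighs most, overlapped at 4 weeks. It was 67109 to 72634 on knock-in arrays against 69333 to 101813 on wild-type arrays. At 11 weeks it was 62686 to 69236 against 74917 to 83185, without overlap. Pan-neuronal genes overlapped at both ages, at 426968 to 443289 on knock-in arrays against 428019 to 432040 on wild-type arrays at 4 weeks and 419946 to 440576 against 432921 to 436835 at 11 weeks. Of 20 pan-neuronal genes 2 were higher, Stmn2 (0.31) and Uchl1 (0.42), and 1 lower, Map2 (-0.50), with a median of -0.02. In that mean over ages 4.81% of all genes were lower and 9.46% higher.

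Sums of other forebrain cell lists were taken the same way and were not tested. For 13 interneuron genes the summed intensity at 4 weeks was 70024 to 78520 on knock-in arrays against 81119 to 92633 on wild-type arrays, and 61287 to 72436 against 77817 to 86412 at 11 weeks. For 10 striatal projection neuron genes it was 52058 to 56119 against 57623 to 65861 at 4 weeks and 51043 to 52465 against 61102 to 69963 at 11 weeks. Neither sum overlapped between genotypes at either age, though 10 of the 13 interneuron genes did not pass in the mean over ages, and 8 of the 10 striatal genes did not pass in the mean. In wild-type cerebellum at 4 weeks the interneuron sum was 179286 to 187012, above that of forebrain, and the striatal sum 28911 to 32208. Neither list was thus confined to forebrain cells. Gad1, the GABA-synthesising enzyme (-0.62, adjusted p = 0.00137), Vip (-0.72, adjusted p = 0.0286) and Reln (-0.34, adjusted p = 0.0312) were lower and 0 of the 13 were higher. A dimmer probe set of Gad1 was at -0.19 and did not pass (adjusted p = 0.201). Among striatal genes Arpp19 was lower (-0.58, adjusted p = 0.000607) and Rgs9 higher (0.37, adjusted p = 0.0323). In the mean over ages 4.81% of all genes were lower and 9.46% higher.

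Summed glial and vascular lists overlapped between genotypes at 1 age or at both. Of 15 astrocyte genes 3 were lower, Glul (-0.53), Mlc1 (-0.57) and Aqp4 (-0.36), and 0 higher. The astrocyte sum at 4 weeks was 198308 to 228382 on knock-in arrays against 212863 to 233517 on wild-type arrays, and 175872 to 191548 against 221411 to 223600 at 11 weeks. Of 12 microglia genes Laptm5 was higher (0.57), and the sum was 59111 to 65736 against 50582 to 55296 at 4 weeks. Of 13 oligodendrocyte genes Sox10 was higher (0.72), and of 13 vascular genes Vwf (-0.79) and Abcb1a (-0.33) were lower. These counts are for the mean over ages, where 4.81% of all genes were lower and 9.46% higher. The part of these other cell types in the differences of the 7 genes was not tested.

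Of 12 measured Ras guanine nucleotide exchange factors 2 were lower in knock-in forebrain over both ages and 0 higher, with a median of -0.05. Of all 9105 genes 4.81% were lower and 9.46% higher. Rasgrf2, a member of the chosen set, was among the 2 factors. The other was Rasgrp1, which is activated by diacylglycerol, at -0.66 ± 0.16 (adjusted p = 0.0141), and its further probe sets were at -0.49 and -0.81 and also passed. Rasgrf1, the closest paralogue, averaged 19701 ± 2386 on the 4-week knock-in arrays, against 20500 ± 1177 on the wild-type forebrain arrays (SD, n = 3 each), and differed by -0.03 ± 0.08 (adjusted p = 0.817). A dimmer probe set of Rasgrf1 was at 0.66 (adjusted p = 0.00935), so its probe sets did not give the same result. Rapgef6 was higher at 4 weeks alone (0.49, adjusted p = 0.0334), while the difference between ages passed for no probe set.

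Among 9 calmodulin-linked neuronal genes 3 were lower and 0 higher over both ages, with a median of -0.50, where 4.81% of all genes were lower and 9.46% higher. Camkk2, a kinase activated by calmodulin, was at -0.89 ± 0.10 (adjusted p = 0.00021) with further probe sets at -0.41 and -0.53 that did not pass. Pcp4, a calmodulin-binding peptide of Purkinje and other neurons, was at -0.50 ± 0.10 (adjusted p = 0.00667), and Itpka was the third. Itpkb, a relative of Itpka, was at 0.06 ± 0.11 (adjusted p = 0.727). Of the vesicular transporters, Slc17a6 (-0.24, adjusted p = 0.683) and Slc32a1 (-0.13, adjusted p = 0.50) were measured, and neither passed.

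In cerebellum 0 of the 7 genes passed at 4 weeks (limma, 0.0512% of all probe sets called, 0.0064% lower and 0.0448% higher) or at 11 weeks (0.346% called, 0.128% lower and 0.218% higher). In these limma tests 1 gene at 4 weeks, Bcl11b, and 2 at 11 weeks, Itpka and Rasgrf2, had an unadjusted p under 0.05. Of all 15627 probe sets 2072 had such a p at 4 weeks and 2306 at 11 weeks. Itpka read 4187, 4023 and 2925 on the 4-week knock-in arrays, against 4613, 4414 and 4101 on the wild-type arrays. The 11-week values were 4318 and 3311 on the knock-in arrays, against 6341 and 8204 on the wild-type arrays. The genotypes overlapped at 4 weeks and were apart at 11 weeks, as were 49.3% of all probe sets. Without overlap, 0 of the 7 lay lower and 1, Bcl11b, higher at 4 weeks, against 7.59% and 11.2% of all probe sets, and 2 lay lower at 11 weeks, Itpka and Rasgrf2, against 22.4% lower and 26.9% higher. The differences were -0.25 ± 0.18 (adjusted p = 0.590) and -0.93 ± 0.22 (adjusted p = 0.0782). Over both ages Itpka was at -0.59 ± 0.14 (adjusted p = 0.0339), the 1 of 7 genes called where 3.35% of probe sets were (1.1% lower, 2.25% higher). This call remained in 4 of the 10 fits that left out 1 cerebellum array. It was lost without wild-type 4 weeks replicates 1, 2 and 3 (-0.57, -0.59 and -0.61), knock-in 4 weeks replicate 3 (-0.51), knock-in 11 weeks replicate 2 (-0.50) and wild-type 11 weeks replicate 2 (-0.50), at adjusted p of 0.0536 to 0.137.

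Rasgrf2 in cerebellum read 21.3, 68.6 and 94.8 on the 4-week knock-in arrays, against 61.2, 45.3 and 17.1 on the wild-type arrays. Its values at 11 weeks were 26.9 and 18.8 on the knock-in arrays, against 51.1 and 67.0 on the wild-type arrays. All lay below the filter limit, so no genotype difference could be sized there. Bcl11b, Tbr1 and Neurod6 lay below the limit on every cerebellum array too. Nrgn read 935 to 2566 in knock-in and 684 to 1461 in wild-type cerebellum at 4 weeks, with a mean difference over ages of 0.18 ± 0.27. Neurod2 read 5988 to 10058 in knock-in and 6964 to 7697 in wild-type cerebellum at 4 weeks, with a mean difference of 0.04 ± 0.13 (95% interval -0.25 to 0.32).

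The difference of the genotype effect between forebrain and cerebellum was called for Rasgrf2 alone among the 7, where 0.282% of all probe sets were called (0.198% lower, 0.0832% higher). It was -1.94 ± 0.36 (adjusted p = 0.0365), and -1.04 with values under the limit raised to it, an alternative chosen after seeing the data. All 10 cerebellum values of Rasgrf2 lay below the limit, so a fall there could not be seen in either form. The call therefore does not show that the genotype effect differed between regions. The call was kept in 5 of the 20 fits without 1 array, those leaving out knock-in cerebellum 4 weeks replicate 1 or 3 or any 4-week wild-type cerebellum array. Without any 1 of the others the difference was -2.01 to -1.86 and the adjusted p 0.0512 to 0.0991. The replicate block also ended the call (adjusted p = 0.0675), as did leaving out the filter (0.0864). For Itpka the difference was -0.21 ± 0.20 with a 95% interval of -0.63 to 0.22 (adjusted p = 0.854), and for Neurod2 0.39 ± 0.19 with an interval of -0.01 to 0.79 (adjusted p = 0.564). Neither gene was thus shown to differ between regions in its genotype effect.

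The genes whose log2 values followed each member most closely over the 10 forebrain arrays were named by Pearson r, which genotype groups can raise by themselves. For Rasgrf2 they were Gabrd, a GABA-A receptor subunit (r = 0.985), Ddit4l, a regulator of mTOR signalling (r = 0.985), and Bola2 (r = 0.975), with its knock-in values below the limit. Their own mean genotype differences were -1.38, -1.53 and -0.73. Those of Itpka were Ube2d3, a ubiquitin-conjugating enzyme (r = 0.958), Larp1 (r = 0.955) and Slc26a2, a sulfate transporter (r = 0.948). Those of Neurod2 were Nudt16 (r = 0.969), Keap1 (r = 0.948) and Echs1 (r = 0.946). Those of Tbr1 were Ptpn23 (r = 0.950), Kdm6a (r = 0.945) and Mterf2 (r = 0.937), those of Bcl11b Thrap3 (r = 0.951), Brpf1 (r = 0.950) and Zfpm2 (r = 0.948), those of Neurod6 Ibtk (r = 0.936), Mkln1 (r = 0.920) and Cnn3 (r = 0.918), and those of Nrgn Klhdc3 (r = 0.946), Tbc1d8 (r = 0.935) and Ddr1 (r = 0.935).

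Genes next to the called members on their chromosomes were read in forebrain in the mean over ages, with 5 measured genes on each side. In that comparison 4.81% of all genes were lower and 9.46% higher. Of the 10 around Rasgrf2 on chromosome 13, 1 was lower, Homer1 (-0.58 ± 0.16, adjusted p = 0.0308), and the range of the 10 was -0.58 to 0.38. Of the 10 around Itpka on chromosome 2, 0 passed, with a range of -0.64 to 0.07. Of the 10 around Neurod2 on chromosome 11, 1 was lower and 0 higher, with a range of -0.32 to 0.35.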

How the data were processed

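Each deposited table gives linear intensities by probe set for 1 array, scaled by the authors to a common trimmed mean, since the 2% trimmed mean was 2500.59 to 2500.75 on every array. Which software made them is not given in the sources used here. Genes were named from the platform annotation (20380 probe sets with 1 symbol, 691 with several, 1555 with none, and 64 controls left out).

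Tests used log2(intensity + 16) with limma 3.58.1 in R 4.3.3 (with version 1.17.8 of data.table), figures Python 3.11.15 and matplotlib 3.10.9. A probe set was kept if at least 2 arrays read above their own 40th percentile. The span of array medians was 0.15 log2 units, under the limit of 0.5 for renormalizing. A model with 1 mean per group over all 20 arrays (12 residual, 3.45 prior degrees of freedom) gave two-sided p-values, adjusted by Benjamini-Hochberg over all 15627, called under 0.05. It was also run on simulated data with independent noise and no effects shared by an array, which cannot show that the calls here hold. The offset understates the differences of dim genes. Precision is limited by the number of arrays.

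Every member was named. Of the lists, called genes and up to 8 (pyramidal) or 3 (others) by p were named, and the 3 most correlated genes of each member. The members and lists were chosen with earlier results of these data known, and the lists are no independent evidence. The main model did not pair arrays by replicate number, and the labels do not say whether same-numbered arrays came from the same animal. Correlations of same-numbered arrays' deviations were -0.10 to 0.05 between genotypes and -0.02 to 0.11 between regions. With 2 or 3 arrays per group these cannot settle whether arrays were paired. Alternatives were another offset, no filter, other normalizations, fewer groups, 1 probe set per gene, blocks and left-out arrays.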

Additional observations from a re-analysis of the deposited data

Results flagged for a closer look

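The fitted genotype effect on Rasgrf2 differed between forebrain and cerebellum by -1.94 log2 units in the interaction term of the model, which is why it is listed. All 10 cerebellum values lay below the filter limit, so the cerebellum side of this difference is not a measured level. A fall there could not be seen, and a difference between regions was not shown.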

How the results depend on the processing

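The 4-week forebrain calls of Rasgrf2 and Itpka, and their calls in the mean over ages, kept direction and call under every alternative run. Without a filter, 51 probe sets were called in forebrain at 11 weeks, 26 in cerebellum at 11 weeks, 307 in the cerebellum mean (0 members), 22 for the region difference (0 members) and 3 for age in wild-type forebrain. Quantile normalization left 2 and cyclic loess 3 in cerebellum at 4 weeks, and cyclic loess 2 for age in wild-type forebrain. Fits of the compared groups alone called 223 in forebrain at 4 weeks, 1301 in its mean, 0 at 11 weeks (0 members, Rasgrf2 at adjusted p = 0.0668), 0 in cerebellum at either age, 0 members in its mean and 0 for age in both wild-type regions. With 1 probe set per gene there were 13 calls in cerebellum at 4 weeks, 4596 between wild-type regions and 18 for age in wild-type cerebellum. The replicate block gave 79 in forebrain at 11 weeks, 18 for age in wild-type cerebellum and 0 members for the region difference (Rasgrf2 at adjusted p = 0.0675), and it changed no other call of Rasgrf2, Itpka or Neurod2. A random block of genotype, age and number gave 67 for the region difference. Alternatives added after seeing the data gave 547, 26 and 1301 in forebrain at 4 weeks, 11 weeks and their mean with forebrain arrays alone, 303, 27 and 974 after cyclic loess of those arrays, and 0 members in the cerebellum mean with cerebellum arrays alone. Causes of these moves were not tested. Leaving out 1 array moved the counts to 394 to 1145 in forebrain at 4 weeks, 14 to 62 at 11 weeks and 729 to 2207 in the mean. They were 3 to 61 in cerebellum at 4 weeks, 1 to 51 at 11 weeks and 94 to 647 in the mean. They were 20 to 54 for the region difference, 0 to 4 for the age difference, 6531 to 7308 between wild-type regions, and 0 to 9 and 10 to 48 for age in wild-type forebrain and cerebellum. Members called were 2 to 3 in forebrain at 4 weeks, 0 to 0 at 11 weeks, 2 to 2 in the mean, 0 to 1 in the cerebellum mean, 0 to 1 for the region difference and 6 to 7 between wild-type regions. Values under the filter limit (median 681) limit what can be said of Rasgrf2, Tbr1, Bcl11b and Neurod6 in cerebellum and of Rasgrf2 in knock-in forebrain.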

Other observations

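Of the 13 Purkinje cell genes measured, 4 were lower in knock-in forebrain over both ages and 1 was higher, where 4.81% and 9.46% of all genes were. Rgs8, a regulator of G protein signalling (-0.69 ± 0.08, limma adjusted p = 0.000199), Plcb4, a phospholipase (-0.94 ± 0.22, adjusted p = 0.0151), Pcp4 and Cacna1g, a T-type calcium channel (-0.44 ± 0.09, adjusted p = 0.0102), were lower. Slc1a6, a glutamate transporter, was higher (0.49 ± 0.10, adjusted p = 0.00699). At 4 weeks their summed intensity was 62863 to 69538 on knock-in arrays against 77606 to 85300 on wild-type arrays, and 58135 to 61600 against 70461 to 74017 at 11 weeks, without overlap. Of 12 cerebellar granule neuron genes 2 were higher, Cbln3 (0.96) and Neurod2, and 2 lower, Reln and Grin2c (-0.41).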
